A study of Mus musculus with 4 samples.

Results

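The 10 genes described here are *Adgre1*, *Csf1r*, *Cd68*, *Lyz1*, *Lyz2*, *C1qa*, *C1qb*, *C1qc*, *Mrc1* and *Itgam*, all of them used as markers of macrophages and monocytes. They were chosen by name, not by a threshold on their values, and read from a table of 46095 mouse genes, and each of the 10 had a row. In the transgenic columns the gene names and the counts had come apart, so those counts were first assigned, in row order, to the names sorted by character code (capitals before lower case), and the WT columns were left as they were. Every transgenic value below comes from this re-sorted table unless the deposited one is named.

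Macrophages are the resident phagocytes of the stomach wall, where they lie in the lamina propria, between the glands and in the muscle layer. Circulating monocytes replace many of them, and their survival depends on the receptor CSF1R and its ligands CSF1 and IL-34. They take up dead cells and bacteria through scavenger, lectin and complement receptors, digest them in lysosomes, and are the main source of C1q, the molecule that starts the classical complement pathway.

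RNA was taken from the stomach of C57BL/6 mice at 12 weeks of age, with 2 WT and 2 transgenic samples analysed here, while the text on the series' design speaks of triplicates. The transgenic mice (MYC-KI in the sample names, genotype Atp4b-cre;MycOE) carried 1 floxed allele of a human c-Myc transgene together with a Cre recombinase whose expression is limited to the *Atp4b*-positive parietal cell lineage. The WT mice were Myc fl/fl littermates, which carry the transgene unrecombined and have no Cre. Macrophages are not among the cells this Cre is meant to target. No group with Cre alone was analysed here, and no source used here says whether a sample came from 1 animal or from several, so p-values measure the spread between these samples.

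The libraries held 30260305 to 41463647 counts. Across genes, which are not independent replicates, the mean log2 count of the genotypes had a Pearson's r of 0.985 after re-sorting and of 0.524 before. Over the 60 rows around each of the 10 genes, r was 0.941 to 0.995 after re-sorting. *Xist*, the transcript of the inactive X chromosome, had 17846 counts in WT replicate 2 and 85 to 201 in the other 3 samples, so 1 WT sample was female by this gene and the other samples were not. The mouse *Myc* row had 1062 and 759 counts in WT against 735 and 1091 in MYC-KI, and since the transgene is human this row is no check of the genotype. Of 15 well-known MYC targets 14 were called higher in MYC-KI, and of 10 parietal cell markers 9 were called lower, among them *Atp4a*, a subunit of the gastric proton pump, at 7816 ± 188 normalized CPM in WT and 162.8 ± 34.4 in MYC-KI (SD, n = 2). CPM are counts scaled to library size, here with TMM factors between libraries.

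Compared with WT, 8 of the 10 genes were lower in the stomach of MYC-KI mice, by 2.21-fold for *C1qa* to 4.95-fold for *Mrc1*. These 8 were *Adgre1*, *Mrc1*, *Itgam*, *Csf1r*, *C1qa*, *C1qb*, *C1qc* and *Lyz2*. *Lyz1* was lower in both transgenic samples but missed the threshold, and *Cd68* overlapped between the genotypes. Calls were made with edgeR's quasi-likelihood test over 17643 genes and needed both a Benjamini-Hochberg adjusted p-value below 0.05 and a change of more than 1.5-fold. By this rule 5.08% of all tested genes were called lower and 5.65% higher, and 0 of the 10 were called higher by edgeR or by DESeq2. An unadjusted p under 0.05 from edgeR was reached by 6024 of the 17643 genes. In 9 of the 10 both MYC-KI samples lay under both WT samples, against 31.5% of all tested genes. The median log2 fold change was -1.58 over the 10 and 0.012 over all tested genes. In RNA from bulk tissue, fewer cells of a type and less RNA per cell cannot be told apart.

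**Figure D1:**
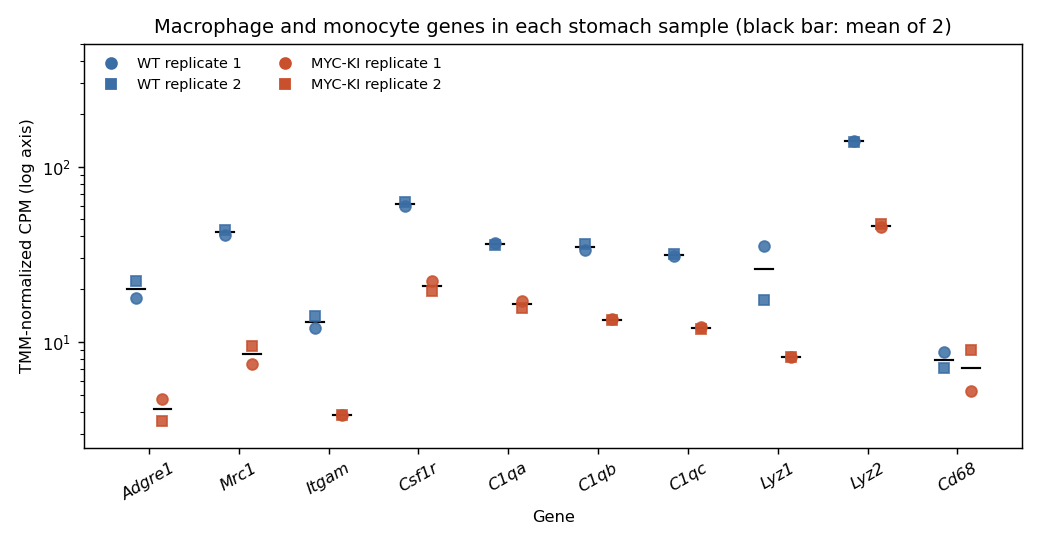
TMM-normalized CPM of the 10 genes (log axis) in WT (blue) and MYC-KI (orange) samples, with circles for replicate 1, squares for replicate 2 and a black bar at the mean of 2. The MYC-KI points lie under the WT points for every gene but *Cd68*, where the 2 MYC-KI samples, at 5.25 and 8.95, enclose WT replicate 2 and WT replicate 1.

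*Adgre1* encodes F4/80, an adhesion G protein-coupled receptor of the macrophage surface that serves as the standard marker of mature mouse macrophages. It had 17.7 and 22.3 CPM in the WT samples and 4.75 and 3.54 in the MYC-KI samples. The lower WT sample was thus several times above the higher transgenic one, and the groups did not overlap. The fall was 4.83-fold (log2 fold change -2.27, standard error 0.24, adjusted p = 0.0205 from edgeR).

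*Mrc1* encodes the mannose receptor CD206, a lectin with which tissue macrophages take up glycoproteins and microbes. Its level was 40.8 and 43.5 CPM in WT and 7.46 and 9.56 CPM in MYC-KI. The groups were far apart, although the transgenic samples differed beyond counting error. With *Adgre1* it had the largest fall among the 10 genes, the pair differing by less than a standard error (log2 fold change -2.31, standard error 0.17, adjusted p = 0.0155 from edgeR). Some endothelial cells also express *Mrc1*, and endothelial markers, given below, were lower in the same samples.

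*Itgam* encodes the CD11b chain of complement receptor 3, which is found on monocytes, many macrophages, neutrophils and NK cells. It had 406 and 391 counts in WT against 130 and 172 in MYC-KI, or 12.1 and 14.0 CPM against 3.83 and 3.85. The transgenic samples were almost equal to each other, and both stood under WT (log2 fold change -1.76, standard error 0.19, adjusted p = 0.0212 from edgeR). The partner chain *Itgb2* had 352 and 371 counts in WT against 211 and 174 in MYC-KI, with an adjusted p-value of 0.0721. In GENCODE M21 the gene lies at chr7:128062640-128118491 (GRCm38, plus strand), and 68.7% of its exonic bases are shared with the model Gm49368 on the same strand, a name for which the table has no row.

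*Csf1r* encodes the receptor on which the survival of mononuclear phagocytes depends. Its name stands at the same place in both sort orders, so its counts are the same in the deposited and the re-sorted table. They were 2007 and 1757 in WT and 755 and 872 in MYC-KI. In normalized CPM this was 59.8 and 63.0 in WT against 22.3 and 19.5 in MYC-KI, a fall of 2.94-fold (log2 fold change -1.56, standard error 0.11, adjusted p = 0.0152 from edgeR). Fitted on the 1355 tested rows that keep their place, with no count moved, the log2 fold change was -1.59 (standard error 0.12, adjusted p = 0.0180 from edgeR). The gene lies at chr18:61100598-61132149 (GRCm38, plus strand). Of its exonic bases 15.1% overlap *Hmgxb3* on the other strand, whose own log2 fold change was 0.28 (adjusted p = 0.134 from edgeR), and whether the counting used strand is not given in the sources used here.

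Of the ligands of this receptor, *Csf1* fell from 662 and 615 counts in WT to 312 and 494 in MYC-KI (log2 fold change -1.04, standard error 0.17, adjusted p = 0.0343 from edgeR). *Csf1* also keeps its row in both orders. *Il34*, the second ligand, had 207 and 172 counts in WT against 217 and 390 in MYC-KI, a log2 fold change of 0.30 with a standard error of 0.24 (adjusted p = 0.447 from edgeR). The fall was thus called for one of the 2 ligands, and the difference between the ligands was not tested.

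**Figure D2:**
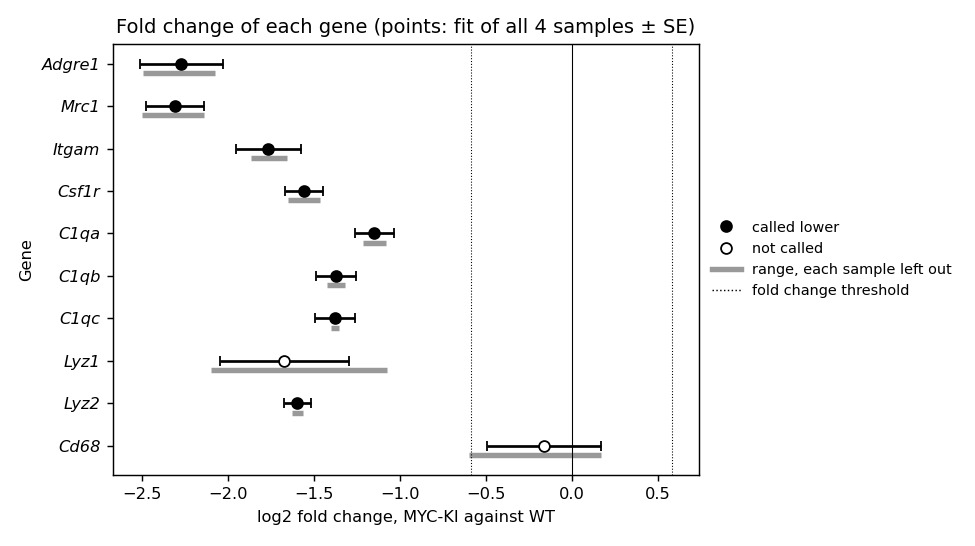
Log2 fold change of MYC-KI against WT for each of the 10 genes (x axis), with its standard error as a horizontal bar, filled points for genes called lower and open points for genes not called. Grey bars span the values obtained when each of the 4 samples was left out in turn, and they are widest for *Lyz1* (-2.10 to -1.07) and *Cd68* (-0.60 to 0.17).

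*C1qa*, *C1qb* and *C1qc* encode the A, B and C chains that assemble into C1q. They lie beside each other on the minus strand of chromosome 4 within 18675 bases, with *C1qb* at chr4:136880129-136886187, *C1qc* at chr4:136889804-136893065 and *C1qa* at chr4:136895917-136898803 (GRCm38, GENCODE M21). All 3 genes fell. *C1qa* had 36.8 and 35.8 CPM in WT and 17.1 and 15.6 in MYC-KI (log2 fold change -1.15, standard error 0.11, adjusted p = 0.0198 from edgeR).

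*C1qb* had 33.4 and 36.1 CPM in WT and 13.5 and 13.4 in MYC-KI, and its log2 fold change was -1.37 (standard error 0.12, adjusted p = 0.0180 from edgeR). *C1qc* had 30.8 and 31.8 CPM in WT and 12.2 and 11.9 in MYC-KI (log2 fold change -1.38, standard error 0.12, adjusted p = 0.0180 from edgeR). For each chain the spread within a genotype was small beside the gap between the genotypes. The count of *C1qc* over that of *C1qb* in the same sample, which no scaling between libraries can change, was 0.920 and 0.883 in WT and 0.908 and 0.886 in MYC-KI, so the pair kept its proportion. *C1qb* over *C1qa* was 0.909 and 1.01 in WT and 0.787 and 0.856 in MYC-KI, lower in both transgenic samples.

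*Lyz1* and *Lyz2* encode lysozyme, which cuts the bacterial cell wall. *Lyz2* is the myeloid gene, and *Lyz1* is best known from Paneth cells of the small intestine. The genes are neighbours on the minus strand of chromosome 10, 5475 bases apart, at chr10:117277331-117282321 for *Lyz2* and chr10:117287797-117292868 for *Lyz1* (GRCm38). The coding sequences in GENCODE M21, each of 444 bases without the stop codon, differ at 22 positions (95% identity), and 20.3% of the stretches of 50 bases in *Lyz1* also occur in *Lyz2*. The longest identical run is 118 bases, and a read that lies within it cannot be assigned to one gene by its sequence. The first 90 coding bases of each are shown because they hold 7 of the 22 differences, by which reads can be told apart. Capitals mark the positions at which the genes differ.
Lyz1: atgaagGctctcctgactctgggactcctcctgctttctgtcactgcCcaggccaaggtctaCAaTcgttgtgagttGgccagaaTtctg
Lyz2: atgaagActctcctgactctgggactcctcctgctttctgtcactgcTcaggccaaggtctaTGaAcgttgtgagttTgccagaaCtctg

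*Lyz2* had 139.6 and 138.9 CPM in WT and 45.0 and 47.1 in MYC-KI. It had the smallest standard error of the 10 genes and fell 3.02-fold (log2 fold change -1.60, standard error 0.08, adjusted p = 0.00975 from edgeR). *Lyz1* had 1179 and 482 counts in WT, 35.1 and 17.3 CPM, so that the WT samples differed far beyond counting error. In MYC-KI it had 8.26 and 8.19 CPM, under both WT samples. Its log2 fold change was -1.67 with a standard error of 0.38, and the adjusted p-value from edgeR was 0.0587. Without WT replicate 1 it was -1.07 and without WT replicate 2 it was -2.10.

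Under DESeq2, the study's tool, *Lyz1* passed (adjusted p = 0.00015), which made 9 of the 10 genes lower there, against 9.38% of the 18439 genes with an adjusted p-value. With the counts of *Lyz1* and *Lyz2* summed into 1 row the log2 fold change was -1.61 (adjusted p = 0.0117 from edgeR). *Lyz1* over *Lyz2* was 0.252 and 0.124 in WT and 0.183 and 0.174 in MYC-KI, and the transgenic values lay between those of WT. Of 11 Paneth cell markers 7 were tested and 0 were called by edgeR or DESeq2, with 1 at an unadjusted edgeR p under 0.05. Of the 7, 6 had a log2 fold change below 0, with a median of -2.08, and 4 were lower in both transgenic samples. *Defa24*, a Paneth cell defensin, had 471 and 311 counts in WT against 190 and 10 in MYC-KI.

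*Cd68* encodes macrosialin, a glycoprotein of the late endosome and lysosome that is abundant in macrophages and present at lower levels in other cells with many lysosomes. It had 295 and 198 counts in WT against 178 and 400 in MYC-KI. As normalized CPM, with exact 95% Poisson intervals that cover counting error only, this was 8.79 (7.82 to 9.85) and 7.10 (6.14 to 8.16) in WT. In MYC-KI it was 5.25 (4.51 to 6.08) and 8.95 (8.10 to 9.88), so the transgenic samples differed by more than counting error and the genotypes overlapped. The log2 fold change was -0.16 with a standard error of 0.33 (adjusted p = 0.773 from edgeR). It was -0.60 without MYC-KI replicate 2 and 0.17 without MYC-KI replicate 1.

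**Figure D3:**
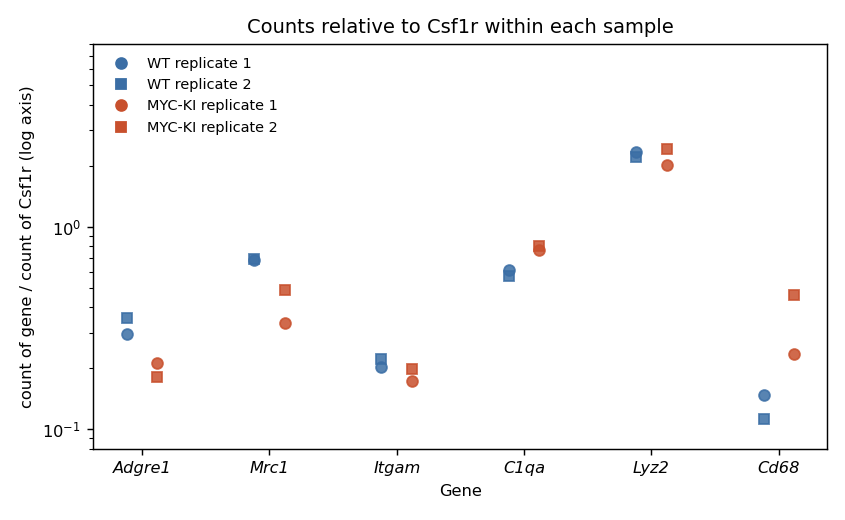
Counts of 6 of the genes divided by the count of *Csf1r* in the same sample (log axis), for WT (blue) and MYC-KI (orange), with circles for replicate 1 and squares for replicate 2. *Adgre1*, *Mrc1* and *Itgam* lie lower in MYC-KI, *C1qa* and *Cd68* lie higher, and *Lyz2* overlaps.

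The genes did not all keep their proportion to *Csf1r*. *Adgre1* over *Csf1r* was 0.296 and 0.353 in WT and 0.213 and 0.181 in MYC-KI, and *Mrc1* over *Csf1r* was 0.683 and 0.690 against 0.335 and 0.490. *Itgam* over *Csf1r* was lower by less, at 0.202 and 0.223 in WT and 0.172 and 0.197 in MYC-KI. *C1qa* over *Csf1r* was higher in MYC-KI, at 0.770 and 0.802 against 0.615 and 0.569. *Cd68* over *Csf1r* was 0.147 and 0.113 in WT and 0.236 and 0.459 in MYC-KI. *Lyz2* stayed at 2.33 and 2.20 in WT and 2.02 and 2.41 in MYC-KI. With 2 samples against 2, an exact permutation test cannot give a two-sided p under 0.333, so these ratios are a description.

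Levels were compared between genes as normalized CPM per kilobase of exonic sequence in GENCODE M21. In WT, *Lyz2* was highest at 105.8 ± 0.398 (SD, n = 2), followed by *C1qa* at 34.9 ± 0.654, *C1qb* at 31.9 ± 1.71, *Lyz1* at 27.8 and 13.7 in the single samples, *C1qc* at 16.2 ± 0.395 and *Csf1r* at 10.6 ± 0.389. *Mrc1* (6.62 ± 0.295), *Cd68* (6.32 ± 0.952) and *Adgre1* (6.18 ± 0.989) could not be ordered beyond their spread, and *Lyz1*, whose samples lay far apart, could not be ordered against *C1qb*, *C1qc* or *Csf1r*. *Itgam* was lowest at 2.60 ± 0.270. In MYC-KI the order was the same at the top, with *Lyz2* at 35.0 ± 1.13 and *C1qa* at 15.8 ± 1.01, and *Itgam* was again lowest at 0.765 ± 0.00248. *Cd68*, at 5.65 ± 2.09, stood there above *Csf1r* at 3.62 ± 0.335, *Mrc1* at 1.34 ± 0.233 and *Adgre1* at 1.28 ± 0.264. The spread of *Cd68* overlapped that of *Csf1r*, and of *C1qc* and *Lyz1* above it, but not those of *Mrc1* and *Adgre1*.

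Promoters of the members, *Cd68* included, were compared in RefSeq windows of 300 bases around the start on GRCm38.p6, most of each window lying upstream. Not every member was part of this search, and the counts below do not cover the members left out. The promoters compared were those of *Lyz1*, *Lyz2*, *C1qb*, *C1qc*, *Mrc1*, *Itgam* and *Cd68*. They were searched on both strands for ACTTCC, which holds the reverse complement of the GGAA core bound by ETS factors such as PU.1, the master regulator of the myeloid lineage. It occurred in 6 of these 7 promoters, all but that of *Itgam*, and in 23.8% of all 32851. *Lyz1* and *Lyz2* are not independent among the 6, since their promoters are identical at 201 of 300 positions. The motif GAGGAA occurred in 5 of the 7 and in 28.3% of all, and GAGGAAGT, which contains both, only in *C1qc* and in 3.20% of all. The stretches with ACTTCC upstream of the RefSeq start are shown in the direction of the gene, with the motif in capitals. They belong to 5 genes that were lower in both transgenic samples.
Lyz1 (chr10:117292943-117292988, minus strand): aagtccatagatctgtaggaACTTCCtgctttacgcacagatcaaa
Lyz2 (chr10:117282347-117282392, minus strand): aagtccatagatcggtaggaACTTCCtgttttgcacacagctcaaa
C1qb (chr4:136886228-136886273, minus strand): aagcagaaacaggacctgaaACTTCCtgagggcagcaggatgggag
C1qc (chr4:136893084-136893129, minus strand): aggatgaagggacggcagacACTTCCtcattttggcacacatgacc
Mrc1 (chr2:14229183-14229228, plus strand): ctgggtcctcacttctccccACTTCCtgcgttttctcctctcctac

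Counted from the RefSeq start, the motif begins 100 bases upstream in *Lyz1* and *Lyz2*, 53 in *C1qb*, 195 in *C1qc* and 211 in *Mrc1*. In *Cd68* the match begins at position 12 after the RefSeq start. The GENCODE gene starts equal those of RefSeq only for *Lyz1* among these 5 genes. Counted from them, the distances are 100 bases in *Lyz1*, 51 in *Lyz2*, 66 in *C1qb*, 44 in *C1qc* and 189 in *Mrc1*. The GENCODE start of *Cd68* lies further downstream than that of RefSeq, so counted from it the *Cd68* match lies upstream too. A match of letters is a description and not a binding site. *Spi1*, which encodes PU.1, had 188 and 214 counts in WT against 103 and 94 in MYC-KI, lower in both transgenic samples, and its log2 fold change was -1.37 with a standard error of 0.33 (adjusted p = 0.0676, edgeR). Of the 12 transcription factors of the myeloid lineage that were listed, 11 were tested and edgeR called 0, while DESeq2 called 1. An unadjusted edgeR p under 0.05 was reached by 3 of the 11, against 6024 of 17643 over all tested genes. Both transgenic samples lay under WT for 3 of the 11 and above WT for 3, and the median log2 fold change was 0.0079. The smallest p was that of *Runx1*, a factor of blood cell formation, which was higher by less than the fold threshold (log2 fold change 0.46, adjusted p = 0.0458 from edgeR). *Irf8*, needed for monocytes, had a log2 fold change of 0.063 (standard error 0.49).

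Other genes of macrophage biology were read from 6 lists with 99 genes, none of them among the 10 above. Of these 86 were tested, and 10 were called lower (11.6%, against 5.08% of all tested genes) and 3 higher. The median log2 fold change of the 86 was -0.78. DESeq2 called 37 of the 99, with all 13 among them, against 3230 of the 18439 genes with an adjusted p-value. Both transgenic samples lay under both WT samples for 51 of the 86, against 31.5% of all tested genes. Over 9 tested recruitment genes the median log2 fold change was -1.09, and 6 had an unadjusted edgeR p under 0.05. Both transgenic samples lay under WT for 7 and above WT for 1. Of the 12 listed, DESeq2 called 4 and edgeR 1, *Cxcl12*, a chemokine of stromal cells. *Cxcl12* fell from 173.4 and 144.7 CPM to 29.0 and 30.3 (log2 fold change -2.42, standard error 0.12, adjusted p = 0.00975 from edgeR). The monocyte chemokine receptor *Ccr2* had 237 and 178 counts in WT against 45 and 130 in MYC-KI (adjusted p = 0.0828), and its ligand *Ccl2* had 38 and 18 against 4 and 43. *Cx3cr1*, the fractalkine receptor, did not pass (log2 fold change -1.27, standard error 0.27, adjusted p = 0.0538 from edgeR).

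Complement outside C1q had 3 genes called lower and 0 higher by edgeR of 14 tested. An unadjusted edgeR p under 0.05 was reached by 11, against 6024 of 17643 over all tested genes. DESeq2 called 10, against 3230 of the 18439 genes with an adjusted p-value. The receptors for the fragments C3a and C5a were both lower. The log2 fold change was -1.17 for *C3ar1* (standard error 0.22, adjusted p = 0.0421 from edgeR) and -1.85 for *C5ar1* (standard error 0.29, adjusted p = 0.0335 from edgeR). The third was *C1s1*, a protease of the C1 complex, from 3022 and 2678 counts to 938 and 2064 (adjusted p = 0.0476 from edgeR). *C3* itself had 6533 and 9186 counts in WT against 1346 and 5430 in MYC-KI, with an adjusted p-value of 0.137.

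Among 23 tested phagocytic receptors and adaptors the median log2 fold change was -1.15, and 17 had an unadjusted edgeR p under 0.05. Both transgenic samples lay under WT for 17 and above WT for 3. Of the 25 listed, edgeR called 5 and DESeq2 14. By edgeR 3 were called lower. These were *Fcgr3*, an activating receptor for IgG (log2 fold change -1.55, standard error 0.29), *Cd36*, a scavenger receptor that takes up fatty acids (-3.06, standard error 0.38), and *Stab1*, a scavenger receptor of tissue macrophages and endothelium (-1.84, standard error 0.17). Their adjusted p-values by edgeR were 0.0447, 0.0245 and 0.0188. In the opposite direction, *Cd14*, the co-receptor for lipopolysaccharide, rose from 222 and 262 counts to 1230 and 1141 (log2 fold change 1.95, standard error 0.28, adjusted p = 0.0294 from edgeR). *Tlr2*, a receptor for bacterial lipoproteins, rose from 306 and 321 to 1016 and 1017 (log2 fold change 1.35, standard error 0.22, adjusted p = 0.0342 from edgeR). *Cd14* and *Tlr2* are expressed by epithelial cells as well as by macrophages.

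*Fcgr1*, the high-affinity receptor for IgG, had 87 and 55 counts in WT against 31 and 49 in MYC-KI (adjusted p = 0.103 from edgeR), and *Tyrobp*, an adaptor of many myeloid receptors, had 164 and 152 against 95 and 104 (adjusted p = 0.0776 from edgeR). Lysosomal and effector genes had 2 called lower and 1 higher of 22 tested. *Apoe*, a lipid carrier, and *Cybb*, the catalytic subunit of the phagocyte oxidase, fell, with log2 fold changes of -1.38 (standard error 0.17) and -1.39 (standard error 0.18), and the adjusted p-values by edgeR were 0.0234 and 0.0262. Like *Csf1r*, *Csf1* and *Cxcl12*, *Cybb* keeps its row in both sort orders, and the 4 genes were also called lower when only such rows were fitted. The cathepsin *Ctss*, prominent in macrophages, had 1207 and 807 counts in WT against 1143 and 521 in MYC-KI, a log2 fold change of -0.52 with a standard error of 0.53.

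The gene called higher was *Chil3*, a chitinase-like protein of alternatively activated macrophages and neutrophils, with 1 and 6 counts in WT against 288 and 263 in MYC-KI (log2 fold change 5.90, standard error 0.80, adjusted p = 0.0279 from edgeR). Its close paralog *Chil4* had 86 and 1761 counts in WT against 398873 and 359268 in MYC-KI, with an adjusted p-value of 0.0569. Reads of *Chil4* counted on *Chil3* could move its value, and their part in the result was not tested.

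**Figure D4:**
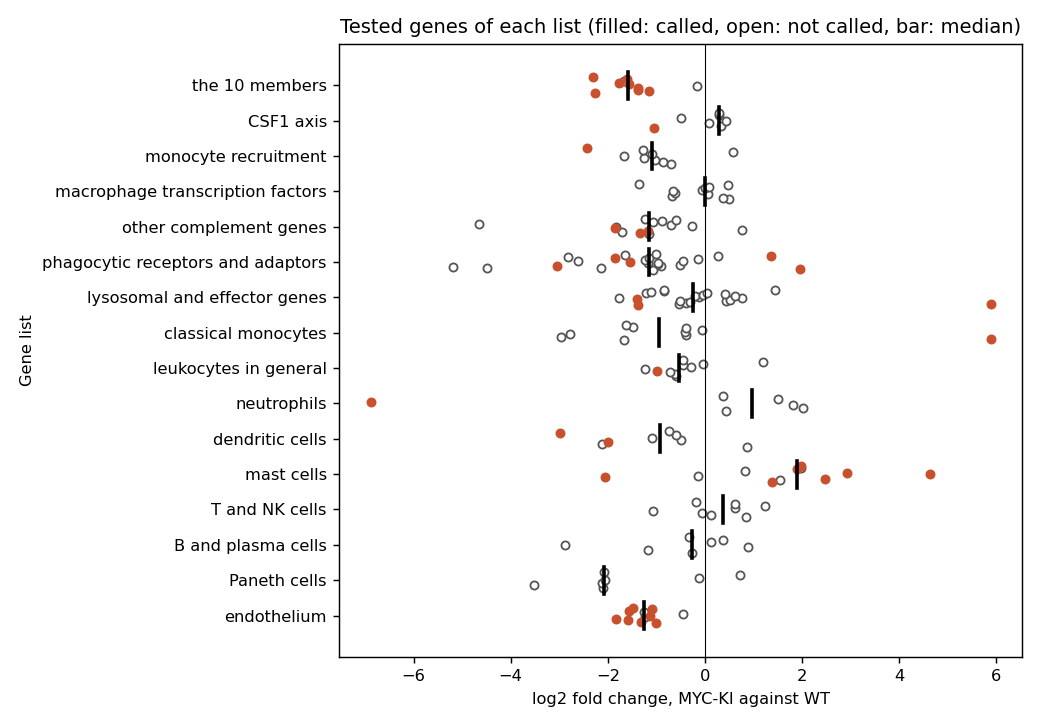
Log2 fold change of MYC-KI against WT (x axis) for the tested genes of each list, with filled points for called genes, open points for genes not called and a black bar at the median. The 10 members have a median of -1.58, the endothelial markers one of -1.26 and the Paneth cell markers, of which none is called, one of -2.08. The markers of mast cells lie mostly above 0.

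Markers of other cell types were read in the same fit, and their part in the fall of the macrophage genes was not tested. Of the epithelial lists, that of chief cells had 4 of 6 tested called lower (median log2 fold change -3.34) and that of surface and neck mucous cells 4 of 7 (median -1.23). All leukocytes carry *Ptprc* (CD45), which had 503 and 591 counts in WT against 742 and 595 in MYC-KI, overlapping between the genotypes with a log2 fold change of -0.040 (standard error 0.32). *Csf1r* over *Ptprc* was 3.99 and 2.97 in WT and 1.02 and 1.47 in MYC-KI. Of 10 general leukocyte markers 1 was called lower, the actin regulator *Coro1a* (log2 fold change -0.99, adjusted p = 0.0497 from edgeR). Of the 10 markers 9 had a log2 fold change below 0, with a median of -0.53, and 6 had an unadjusted edgeR p under 0.05. Both transgenic samples lay under WT for 7 and above WT for 1. The summed level of the 10 was 242.7 and 268.5 CPM in WT and 236.0 and 174.5 in MYC-KI.

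Of 11 endothelial markers 8 were called lower and 3 were not (*Lyve1*, *Prox1* and *Stab2*), and the median log2 fold change was -1.26. Their summed level was 478.0 and 455.8 CPM in WT and 182.4 and 187.4 in MYC-KI. *Pecam1*, the junction protein CD31, had 3078 and 2876 counts in WT against 1549 and 1915 in MYC-KI (log2 fold change -1.14, standard error 0.10, adjusted p = 0.0180 from edgeR).

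Dendritic cell markers had 2 of 8 tested called lower, the lectins *Cd209a* (adjusted p = 0.0454, edgeR) and *Siglech* (adjusted p = 0.0425, edgeR), and *Itgax*, which encodes CD11c, had 256 and 174 counts in WT against 192 and 158 in MYC-KI. The level summed over tested markers was 23.6 and 22.4 CPM in WT and 14.2 and 11.1 in MYC-KI. Of 10 classical monocyte markers edgeR called 1 higher, *Chil3*, and 0 lower, and DESeq2 called 4. An unadjusted edgeR p under 0.05 was reached by 4 of the monocyte markers, against 6024 of 17643 over all tested genes. Of these markers 9 had a log2 fold change below 0, with a median of -0.95, and 5 were lower in both transgenic samples. That list summed to 622.1 and 633.3 CPM in WT and 511.8 and 485.3 in MYC-KI, mostly *Plac8* and *Fn1*, which are not limited to monocytes, and its members *Ccr2* and *Chil3* are also in the macrophage lists.

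Neutrophils share *Itgam* and *Lyz2* with macrophages. Of 12 neutrophil markers 6 were tested, 0 were called higher and 1 was called lower, the resistin-like *Retnlg*, with 40 and 76 counts in WT against 1 and 0 in MYC-KI. *Retnlg* was the only tested neutrophil marker with a log2 fold change below 0. The median of the 6 was 0.96, and 2 were higher in both transgenic samples. *S100a8* and *S100a9*, the calprotectin subunits, had 8 and 3 and 153 and 53 counts in WT and 19 and 20 and 76 and 275 in MYC-KI. *Ly6g*, *Camp* and *Ngp* are listed at 0 in all 4 samples, and so are *Aif1* and *Tnf* of the macrophage lists. The summed neutrophil level was 69.0 and 25.7 CPM in WT and 55.5 and 244.0 in MYC-KI, where *Ltf* alone had 10450 counts in MYC-KI replicate 2. Of the tested markers of T and NK cells (8) and of B and plasma cells (7), 0 were called by edgeR or DESeq2, with 0 and 3 at an unadjusted p under 0.05, while 6 of 11 mast cell markers were called higher and 1 lower.

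The calls rest on both WT samples. Without either one, edgeR called 0 genes in the whole table, while 3554 and 3410 genes had an unadjusted p under 0.05, among them 9 of the 10 members, all lower. Without MYC-KI replicate 1 or 2 the same 8 members were called. Among the other macrophage genes, *C3ar1* and *C5ar1* lost their call without either MYC-KI replicate, and *Csf1* and *Fcgr3* lost it without MYC-KI replicate 1. Other genes gained one, and the 13 calls among the 99 genes became 21 without MYC-KI replicate 1 and 27 without MYC-KI replicate 2. The 3 lysosomal and effector calls became 8 and 7, and the 1 classical monocyte call became 2 and 4. Of the lists of other cell types, the 2 dendritic cell calls fell to 0 without either MYC-KI replicate, and the 7 mast cell calls to 2 without replicate 1 and 5 without replicate 2. With replicate 1 left out, 2 Paneth cell markers and 3 leukocyte markers were called, and with library size in place of TMM the call of *Coro1a* was lost. *Chil3* was not tested when at least 10 counts were asked of every sample.

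In the deposited table, where transgenic counts stand beside other names, 6 of the 10 were called lower and 3 higher. Of all 22083 genes tested there, 18580 were called, 9158 lower and 9422 higher. *Adgre1* is listed there with 0 counts in both transgenic samples, *Lyz1* with 0, and *C1qa* with the 457 and 598 counts that re-sorting assigns to *C1qb*. *Cd68* is listed with 428 and 735 and *Itgam* with 3474 and 4837. Of the 10 members, 9 have transgenic values that depend on the re-sorting, and *Csf1r* is the exception.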

How the data were processed

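Gastric RNA was sequenced in 2 WT and 2 MYC-KI samples. The authors deposited 1 table of raw counts per gene symbol, neither normalized nor pooled. HISAT2 and the build mm10 are named in the submitters' processing notes, and the counting tool, annotation and strand setting are not given in the sources used here. All 46095 rows had a name and every column was mapped by its title.

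Names were sorted by character code and paired in that order with the MYC-KI counts. The test was that of edgeR 4.0.16 under R 4.3.3 (scaling by TMM, filterByExpr, quasi-likelihood test, no covariates, Benjamini-Hochberg adjustment over 17643 genes). Standard errors were obtained from the fold change and its F statistic. The common dispersion corresponded to a coefficient of variation of 0.295. Replicates differed by more than counting noise (chi-square per degree of freedom 28.9 in WT and 97.9 in MYC-KI). Members and lists were chosen with earlier results of these data known. Genes named are the 10 members, up to 6 called genes of each list by unadjusted p, and defining markers. *Chil4*, *Ltf*, *Plac8*, *Fn1*, *Runx1*, *Lyve1*, *Prox1*, *Stab2* and *Hmgxb3* were named after their values were seen. Alternatives were DESeq2 1.42.0, other scalings, filters and thresholds, a replicate block, leaving out each sample and the deposited pairing. A fit restricted to rows whose place is the same under both sort orders was added after seeing the data.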

Additional observations from a re-analysis of the deposited data

How the results depend on the processing

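Of 17643 tested genes 1892 were called, and 8 of the 10 members were called lower. The same 8 were called with the size factors of DESeq2, with library size in place of TMM and with at least 10 counts in every sample. Library size moved the median of all genes from 0.012 to 0.23 and the number called to 3011 (2272 higher and 739 lower, against 996 and 896), and *Cd68* to 0.061. DESeq2 called 3230 genes, and a log2 threshold of 1 left 1113. DESeq2 and no filter on low counts each added *Lyz1* to the members. Of the 99 genes in the 6 macrophage lists 13 were called by edgeR, 37 by DESeq2 and 27 without a filter.

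With the replicate number as a block 114 genes were called, with 2 members, *Lyz2* and *Mrc1*, and 3 of the 99 genes. The numbers are shared in the labels only, and the deviations of same-numbered samples had a correlation of 0.067 across genes. Leaving out 1 sample at a time gave 0 to 2470 genes and 0 to 8 members called, and the log2 fold change of *Cd68* ran from -0.60 to 0.17. With 1 sample in an arm, that sample is assumed to vary like the other genotype. As deposited, 18580 of 22083 tested genes were called. Of the members 3 were higher, with log2 fold changes of 1.31 for *C1qb*, 0.94 for *Cd68* and 3.08 for *Itgam*, because other genes' counts stand beside these names. On the rows at the same place 132 of 1355 genes were called. The lowest member count was 130, and a count of 0 allows up to 3 counts, counting error only.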
